A study of Mus musculus with 4 samples.

Results

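The CDK inhibitor genes are the 7 mouse genes that encode the Cip/Kip proteins (Cdkn1a, Cdkn1b and Cdkn1c) and the Ink4 proteins (Cdkn2a, Cdkn2b, Cdkn2c and Cdkn2d). They were taken by symbol from the 28250 genes of the deposited tables, and each was listed once. The cells were of TBV2, a line of mouse embryonic stem cells (ESC), and MS-275 (entinostat) inhibits class I histone deacetylases (HDACs). RNA-seq was done on TBV2 cells, with no allele or transgene given in the labels, after 24 h with solvent (2 libraries) or with 5 µM MS-275 (2 libraries), and LIF was present in both groups. By the labels, TBV2 cells were maintained on feeders and grown on gelatin, and whether feeder fibroblasts were left in the plates used for RNA was not stated. Nothing in the labels says that the 2 libraries of a group came from separate cultures, so the spread that the p-values rest on may be technical.

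Cyclin-dependent kinases (CDKs) drive cells from one phase of the cell cycle to the next. The Ink4 proteins bind CDK4 and CDK6 and keep D-type cyclins off them. The Cip/Kip proteins bind whole cyclin-CDK complexes, mainly those of CDK2. ESCs are known for a short G1 phase and high CDK2 activity. Cdkn1a (p21) is the gene classically described as switched on by HDAC inhibitors through GC boxes near its start, and Cdkn2a encodes p16Ink4a and p19Arf from different first exons.

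Promoters of some of these genes are printed here, as the bases before the annotated start in RefSeq on GRCm38.p6, read 5′ to 3′ on the strand of the gene. The RefSeq table held promoters for 6 of the 7 genes. Those of Cdkn1a and Cdkn1b are shown because these family members moved in opposite directions, and those of Cdkn2a and Cdkn2b because the locus holds the largest rises among the 7 genes. Capitals mark GGGCGG (the GC box), the CCAAT box, the TATAA element of TATA promoters and the E-box, spelled CACGTG. Each was searched on both strands, and the marked matches do not overlap.
Cdkn1a, main start, chr17:29093519-29093768, plus strand: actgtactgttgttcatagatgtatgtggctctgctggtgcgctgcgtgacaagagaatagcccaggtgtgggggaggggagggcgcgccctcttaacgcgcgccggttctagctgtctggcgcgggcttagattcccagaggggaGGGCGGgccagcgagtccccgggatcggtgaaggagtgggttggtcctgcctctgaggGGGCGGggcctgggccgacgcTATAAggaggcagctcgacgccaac
Cdkn1b, chr6:134920151-134920400, plus strand: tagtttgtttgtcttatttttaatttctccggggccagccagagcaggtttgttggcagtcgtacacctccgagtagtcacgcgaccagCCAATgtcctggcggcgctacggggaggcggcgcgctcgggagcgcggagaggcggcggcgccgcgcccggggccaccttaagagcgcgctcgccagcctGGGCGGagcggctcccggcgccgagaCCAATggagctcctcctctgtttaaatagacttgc
Cdkn2a, exon 1 beta start (p19Arf), chr4:89294654-89294869, minus strand: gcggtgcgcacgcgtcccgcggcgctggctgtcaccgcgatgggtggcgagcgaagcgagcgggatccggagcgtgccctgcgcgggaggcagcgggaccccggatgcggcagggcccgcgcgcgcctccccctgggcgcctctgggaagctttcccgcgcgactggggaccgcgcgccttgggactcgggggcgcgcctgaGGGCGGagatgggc
Cdkn2a, exon 1 alpha start (p16Ink4a), chr4:89282193-89282442, minus strand: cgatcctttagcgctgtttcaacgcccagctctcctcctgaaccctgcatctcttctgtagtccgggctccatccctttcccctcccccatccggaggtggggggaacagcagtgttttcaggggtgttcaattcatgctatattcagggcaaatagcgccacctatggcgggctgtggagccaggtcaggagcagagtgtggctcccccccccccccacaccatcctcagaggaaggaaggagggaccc
Cdkn2b, chr4:89311033-89311282, minus strand: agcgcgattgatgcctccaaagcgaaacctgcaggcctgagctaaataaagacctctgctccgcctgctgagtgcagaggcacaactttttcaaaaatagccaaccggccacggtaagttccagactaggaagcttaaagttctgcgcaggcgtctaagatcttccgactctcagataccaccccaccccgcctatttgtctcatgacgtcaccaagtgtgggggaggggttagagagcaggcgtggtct
The Cdkn1a window held GC boxes from -104 to -99 and from -46 to -41, counted back from the start, and a TATAA at -25 to -21. The Cdkn1b window held 1 GC box, at -61 to -56, and CCAAT at -161 and at -35. In the exon 1 beta window of Cdkn2a, cut to 216 bases where it met the annotated exon, a GC box lay at -48. The part cut off, which lies within the exon, held another GC box at -14 to -9. The windows of exon 1 alpha and of Cdkn2b held none of the 4 motifs. Among windows not printed, that of Cdkn2d held 3 GC boxes and 1 CCAAT, and an upstream one of Cdkn1a held 1 TATAA. A Cdkn2c window that lay within an annotated exon held 3 GC boxes, and another of Cdkn2c held none of the motifs. Among the 32851 RefSeq promoter windows of 250 bases, 32.7% held a GC box, 33.8% a CCAAT, 22.8% a TATAA and 6.02% an E-box. A match to these letters describes the window and is not evidence of binding.

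The deposited value of a gene is a normalized expression signal made by the authors with Genomatix, without a stated formula, and it is not a read count. The 4 libraries hold values that sum to between 2490 and 4359, and between 9785619 and 23467935 alignments of 35 bases on mm9. Both replicate 1 alignment sets hold repeated positions (53.2% of solvent and 54.4% of MS-275 alignments), whereas the replicate 2 sets hold none. The values of these genes tracked the alignment set filed under the opposite replicate of their condition, so the alignment sets are named here as with repeats or without repeats, and not by replicate. Of 10 ESC markers, each was above 0 in every library, and all 10 were lower with MS-275 in both replicate pairs. Of 14 fibroblast markers, 10 were higher with MS-275 in both pairs and none was at 0 in any library. A value above 0 therefore does not tell these cell types apart.

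With MS-275, 6 of the 7 CDK inhibitor genes were higher in both replicate pairs and Cdkn1b was lower in both. Of all genes tested, 50% were higher in both pairs and 26.5% lower. Cdkn2a and Cdkn2b, neighbours on chromosome 4, stood 8.84-fold to 11.2-fold above solvent in each pair, and Cdkn1c (p57) 2.28-fold and 11.6-fold. Cdkn1b (p27) fell to 0.435 and 0.439 of its solvent value. Cdkn1a rose little in one pair (1.12-fold) and 2.33-fold in the other. Values of both MS-275 libraries lay above both solvent values for 5 of the 7 genes and below them for 1. Over the 20336 genes tested the corresponding shares were 32.3% and 12%. By a change of at least 2-fold in both pairs, 3 of the 7 were higher (Cdkn1c, Cdkn2a and Cdkn2b) and 1 lower, against 11.5% and 2.04% of all 28250 genes. The median log2 fold change of the 7 genes was 1.10, against 0.20 over all genes tested.

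The test was limma on log2(value + 0.005), with Benjamini-Hochberg adjustment over 20336 genes; fold changes on this scale understate those of low genes. Without a block for the replicate number, none of the 7 genes passed an adjusted p of 0.05, and over all genes 0.00492% passed as higher and 0% as lower. At an unadjusted p under 0.05, Cdkn1c, Cdkn2a and Cdkn2b were higher and Cdkn1b lower, where 14.6% and 2.77% of all genes passed. In the authors' headers the word old marks replicate 1 in either condition, and the libraries vary together by replicate number. With the replicate number as a block, 4 of the 7 genes were called higher (Cdkn1c, Cdkn2a, Cdkn2b and Cdkn2c) and 1 lower (Cdkn1b), against 21% and 6.46% of all genes. Adjusted p-values below are from limma with the block unless stated otherwise. With the block, the libraries leave little information on the spread of a single gene, and limma takes most of it from the other genes. Small p-values below therefore do not measure the spread of that gene alone.

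**Figure D1:**
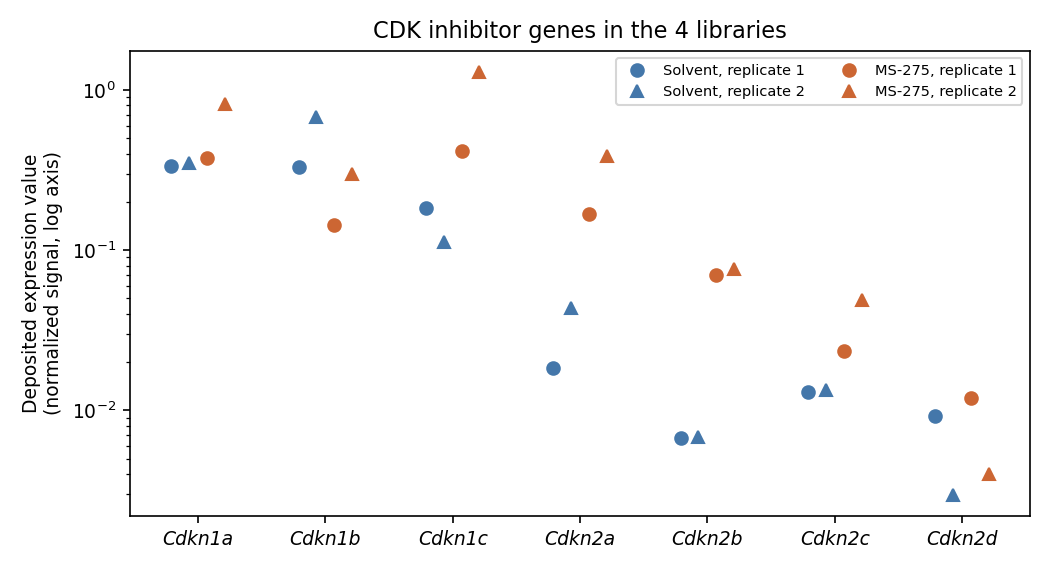
Deposited normalized expression value (log axis) of each CDK inhibitor gene in the 4 libraries; blue points are solvent and orange points MS-275, circles replicate 1 and triangles replicate 2. Cdkn2a and Cdkn2b show the clearest gap, from 0.00667 to 0.0436 with solvent and from 0.0704 to 0.385 with MS-275, and the groups of Cdkn2d overlap.

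Among the Cip/Kip genes, Cdkn1a (Entrez 12575; mm9 chr17:29227924-29237667, plus strand) encodes p21, which holds CDK2 complexes inactive and binds PCNA. Its values were 0.335 and 0.352 with solvent (replicates 1 and 2) and 0.375 and 0.821 with MS-275. The groups did not overlap, but only replicate 2 of MS-275 stood far above the others. The means were 0.343 ± 0.0120 and 0.598 ± 0.316 (SD, n = 2 each), with a log2 fold change of 0.69 (SE 0.274; adjusted p = 0.0748; without the block SE 0.519 and adjusted p = 0.600). The 95% interval of the change with the block ran from 0.10 to 1.27. On distinct alignment positions, limma-voom with the block called it higher, at a log2 fold change of 0.48 (adjusted p = 0.00841), and without the block it did not (0.43; adjusted p = 0.277). With the block that rule called 29.7% of all its genes higher and 13.8% lower. Leaving out MS-275 replicate 2 left a log2 fold change of 0.13, and leaving out MS-275 replicate 1 gave 1.25.

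Cdkn1b (Entrez 12576; chr6:134870419-134875531, plus strand) encodes p27, which restrains cyclin E-CDK2 and is removed through the Skp2 ubiquitin ligase as cells enter S phase. It read 0.329 and 0.678 with solvent and 0.143 and 0.298 with MS-275. Both MS-275 values lay below both solvent values, and replicate 2 was the higher of its group in either condition. The means were 0.504 ± 0.247 and 0.220 ± 0.109 (SD, n = 2 each). The log2 change was -1.17 in each pair and in the fit (SE 0.226; adjusted p = 0.00126; without the block SE 0.519 and adjusted p = 0.283). Of the genes tested, 427 fell further. On distinct positions limma-voom called the fall also without the block (-1.30; adjusted p = 0.0280), a rule that called 15.1% of its 16994 genes higher and 5.08% lower.

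Cdkn1c (Entrez 12577; chr7:150644255-150646955, minus strand) encodes p57, an imprinted CDK inhibitor expressed from the maternal copy. Its values were 0.182 and 0.112 with solvent and 0.415 and 1.30 with MS-275. Each MS-275 library lay above each solvent library, and replicate 2 of MS-275 stood apart from replicate 1. The means were 0.147 ± 0.0496 and 0.856 ± 0.624 (SD, n = 2 each), and the log2 fold change was 2.32 (SE 0.368; adjusted p = 0.000276; without the block SE 0.571 and adjusted p = 0.0801). The pairs differed widely, at 1.17 and 3.48. On distinct positions, scaled to the exon positions of each set, the rise was 5.22-fold in the sets with repeats and 3.16-fold in those without. Repeats made up 73.7% of the Cdkn1c alignments in the MS-275 set with repeats and 33.5% in its solvent set. The part of repeats in the difference between the pairs was not tested. On distinct positions the change was 2.00 without and 2.04 with the block (limma-voom, adjusted p = 0.00677 and 1.23e-08). On all alignments, repeats included, it was 2.83 with the block (limma-voom, adjusted p = 2.50e-05), a rule that called 26.3% of 17317 genes higher and 10.2% lower. On the deposited values 303 tested genes rose more.

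Among the Ink4 genes, Cdkn2a (Entrez 12578; chr4:88920377-88940557, minus strand) encodes p16Ink4a, which binds CDK4 and CDK6, and p19Arf, which protects p53 by holding Mdm2. It read 0.0183 and 0.0436 with solvent and 0.168 and 0.385 with MS-275. The groups were well apart, and replicate 2 was the higher library in both. The means were 0.0309 ± 0.0179 and 0.277 ± 0.154 (SD, n = 2 each). The log2 fold change was 2.95, with 2.89 and 3.01 in the pairs (SE 0.235; adjusted p = 1.35e-06; without the block SE 0.545 and adjusted p = 0.0581). It ranked as the largest rise of the 7 genes on this scale, with 87 tested genes above it.

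Cdkn2b (Entrez 12579; chr4:88952198-88956941, minus strand) encodes p15Ink4b, a CDK4 and CDK6 inhibitor best known as a TGF-beta target. Its values were 0.00667 and 0.00680 with solvent and 0.0704 and 0.0761 with MS-275. The libraries of a group lay close together here, closer relative to their mean, in both groups, than for any other of the 7 genes. The means were 0.00674 ± 9.19e-05 and 0.0733 ± 0.00402 (SD, n = 2 each), and the log2 fold change was 2.74 (SE 0.302; adjusted p = 1.37e-05; without the block SE 0.605 and adjusted p = 0.0697). The unblocked SE was wider than the spread of these 4 values because limma draws it towards that of genes of similar level.

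Cdkn2c (Entrez 12580; chr4:109333481-109339794, minus strand) encodes p18Ink4c. It read 0.0130 and 0.0134 with solvent and 0.0234 and 0.0485 with MS-275. The solvent values nearly coincided and both MS-275 values were above them. The means were 0.0132 ± 0.000247 and 0.0359 ± 0.0178 (SD, n = 2 each), with a log2 fold change of 1.10 (SE 0.325; adjusted p = 0.020; without the block SE 0.643 and adjusted p = 0.454). With the block and quantile normalization it was no longer called (adjusted p = 0.17).

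Cdkn2d (Entrez 12581; chr9:21092907-21095653, minus strand) encodes p19Ink4d. It had values of 0.00920 and 0.00298 with solvent and 0.0119 and 0.00400 with MS-275. Replicate 1 was the higher library of both groups and the groups overlapped. The means were 0.00609 ± 0.00440 and 0.00796 ± 0.00559 (SD, n = 2 each), and the log2 fold change of 0.21 was not called (adjusted p = 0.598; without the block 0.911). Its 95% interval with the block ran from -0.36 to 0.78, and under quantile normalization the sign turned (-0.27). Too few alignment positions were present for limma-voom.

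**Figure D2:**
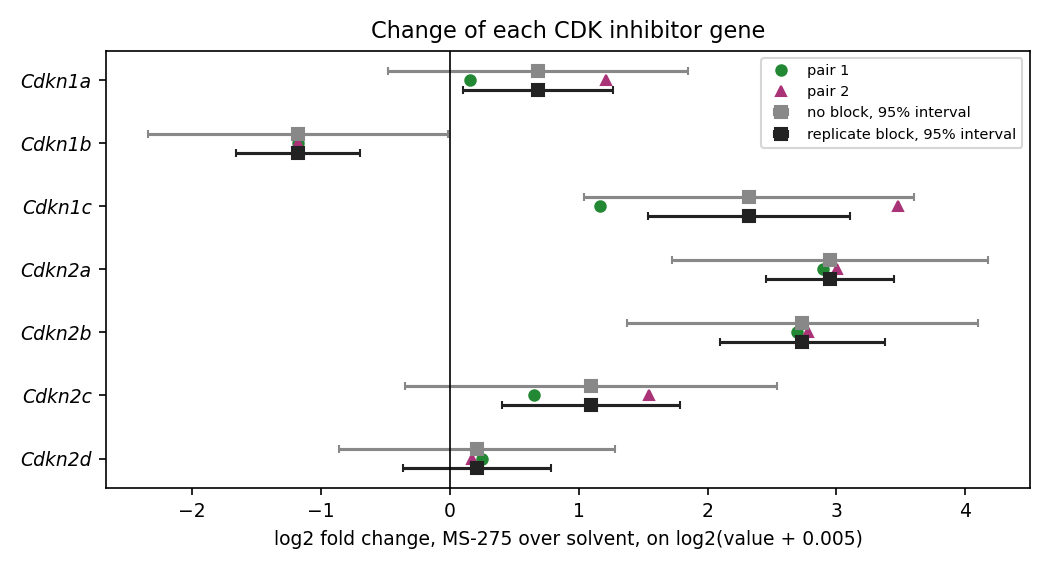
Log2 fold change of MS-275 over solvent on log2(value + 0.005) for each gene; grey squares are fits without and black squares fits with the replicate block, with 95% intervals, and the green circles and purple triangles are the 2 replicate pairs. The pairs of Cdkn1b (-1.17 and -1.17), Cdkn2a and Cdkn2b lie close together, whereas those of Cdkn1a (0.16 and 1.21) and Cdkn1c (1.17 and 3.48) lie apart.

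Summed over a family, the values of the 4 Ink4 genes were 0.0472 and 0.0667 with solvent and 0.274 and 0.514 with MS-275. The 3 Cip/Kip genes summed to 0.846 and 1.14 with solvent and 0.933 and 2.42 with MS-275. The Ink4 sums of both MS-275 libraries were above both solvent sums, whereas the Cip/Kip ranges overlapped. The median log2 fold change was 1.92 for Ink4 and 0.69 for Cip/Kip genes, and whether the families differ was not tested.

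Levels of different genes were compared per length, as an exon rate: distinct alignment positions per kilobase of exon per 1000000 exon positions of the set (GENCODE M1 on mm9). With solvent, Cdkn1a had 48.8 (with repeats) and 43.0 (without repeats), followed by Cdkn1b with 46.7 and 33.1. Their ranges overlapped, so the order of these genes with solvent is not settled by these libraries. Cdkn1c had 11.3 and 11.9 and Cdkn2a 10.5 and 2.20. The lowest were Cdkn2b (2.08 and 0.979), Cdkn2c (1.94 and 1.02) and Cdkn2d (0.569 and 1.07), whose ranges overlapped one another. In counts of positions, Cdkn2b rested on 20 and 9 and Cdkn2d on 5 and 9 with solvent, so the values of these genes carry wide counting error.

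With MS-275 the order per length changed. Cdkn1a had 82.2 and 48.3, Cdkn1c 59.1 and 37.5, Cdkn2a 47.4 and 20.9, Cdkn1b 23.5 and 11.4, and Cdkn2b 16.5 and 10.3. Each of these ranges overlapped that of the next gene. In each MS-275 set Cdkn1b stood below Cdkn1c and Cdkn2a, whereas in each solvent set it stood above both. Cdkn2c (6.64 and 2.33) and Cdkn2d (0.701 and 1.39) were the lowest, and their ranges did not overlap. For Cdkn1a the 95% Poisson intervals of this rate were 45.3 to 52.4 and 77.3 to 87.4 in the sets with repeats, and 39.7 to 46.5 and 45.0 to 51.8 in those without, for solvent and MS-275. At most 23.1% of the possible start positions of a member were filled.

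**Figure D3:**
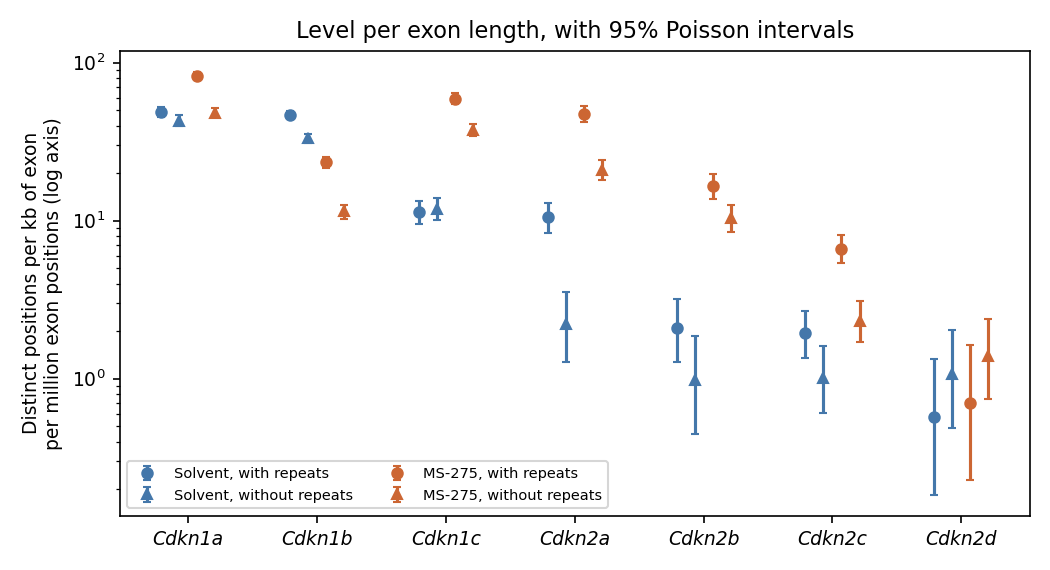
Exon rate, in distinct alignment positions per kilobase of exon per 1000000 exon positions (log axis), for each gene; blue is solvent and orange MS-275, circles are alignment sets with repeats and triangles sets without, and bars are 95% Poisson intervals, which cover counting error alone. Cdkn1b moves down from 33.1 to 46.7 with solvent to 11.4 to 23.5 with MS-275, while Cdkn1c moves up from 11.3 to 11.9 to 37.5 to 59.1.

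Reads in the first exons of Cdkn2a tell its products apart. Exon 1 beta (chr4:88940238-88940557), which begins the p19Arf transcript, held 28 and 8 distinct positions with solvent and 112 and 68 with MS-275 (with repeats, then without). Exon 1 alpha (chr4:88927890-88928096), which begins p16Ink4a, held 9 and 1 with solvent and 38 and 11 with MS-275. Exon 1 beta thus held the larger count in every set, but it is also longer, at 320 bases against 207. Per kilobase it held 87.5 and 25 positions against 43.5 and 4.83 for exon 1 alpha with solvent. With MS-275 these were 350 and 212.5 against 184 and 53.1. Whether the difference per kilobase with solvent exceeds counting error was not tested. Without adjustment for length, the share of exon 1 beta in both counts was 75.7% (95% Clopper-Pearson interval 58.8 to 88.2) and 88.9% (51.8 to 99.7) with solvent and 74.7% (66.9 to 81.4) and 86.1% (76.5 to 92.8) with MS-275. By exon rate, exon 1 beta was 4.93-fold and 7.62-fold higher with MS-275, exon 1 alpha 5.20-fold and 9.86-fold, and the shared exons 2 and 3 were 4.13-fold and 11.3-fold higher. Both starts therefore had more reads with MS-275, and the share of exon 1 beta showed no difference that these counts could resolve.

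Cdkn1b has an annotated transcript (001) with a long 3′ untranslated region and another (002) that skips part of it. The skipped stretch, chr6:134872102-134874260 (2159 bases, all untranslated), was singled out after its values were seen. It held 34.6% (32.2 to 37.1) and 37.9% (34.9 to 41.0) of the exon positions of Cdkn1b with solvent and 21.8% (18.6 to 25.4) and 23.8% (19.6 to 28.3) with MS-275. The intervals, which are Clopper-Pearson and cover counting error, do not overlap between the conditions. The stretch fell to 0.317 and 0.216 of its solvent rate, and the other exons to 0.601 and 0.424. Counting all alignments in the sets with repeats gave shares of 23.6% and 15.3%.

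In Cdkn1a, exons 2 and 3, which hold the coding sequence, had 710 and 618 distinct positions with solvent and 973 and 774 with MS-275, a rise of 1.69-fold and 1.12-fold in exon rate. The main first exon (chr17:29230717-29230806) had 22 and 11 with solvent and 30 and 10 with MS-275, and the upstream one (chr17:29227924-29228046) had 14, 1, 11 and 3 in the same order. A 190-base stretch that starts transcript 002, joined to exon 2 (chr17:29235152-29235341), had 3 and 1 with solvent and 11 and 3 with MS-275, 4.52-fold and 2.69-fold in exon rate. These counts are too small to place the change of Cdkn1a at one start. The first exon of Cdkn2d (chr9:21095253-21095653) held 0 positions in all 4 libraries. A count of 0 allows up to 3 positions there, or an exon rate of 1.02 to 1.33 by library, which is about the level of the whole gene.

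**Figure D4:**
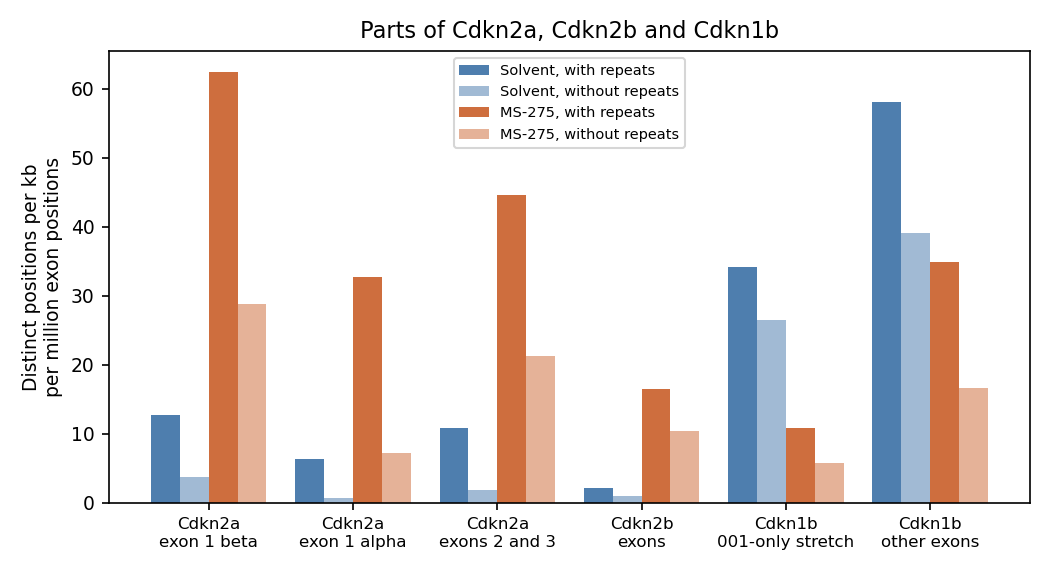
Exon rate, in distinct alignment positions per kilobase per 1000000 exon positions, in parts of Cdkn2a, Cdkn2b and Cdkn1b; blue bars are solvent and orange bars MS-275, dark for alignment sets with repeats and pale for sets without. All 3 parts of Cdkn2a are higher with MS-275 in both kinds of set, and the stretch of transcript 001 of Cdkn1b is lower, at 10.8 and 5.73 against 34.1 and 26.5.

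The genes beside the members were read from the same fit. Cdkn2a and Cdkn2b lie 11.6 kb apart on the same strand. The next tested genes outward were Mtap, 93.4 kb away, with a log2 fold change of 0.50 (adjusted p = 0.111), and Dmrta1, 389 kb away, with 0.38 (adjusted p = 0.208), neither of them called. Dmrta1 read 0.00075 and 0.00142 with solvent and 0.00315 and 0.0027 with MS-275. All lie below the 0.005 added before the log, so 0.38 understates its rise. How far the rises of Cdkn2a and Cdkn2b extend along the chromosome was not tested. Beside Cdkn1b, Apold1 (56.5 kb away) was higher, by 0.88 (adjusted p = 0.0158), and Gpr19 (22.5 kb) had -0.58 (adjusted p = 0.0917). Beside Cdkn1c, Kcnq1 had 0.47 (adjusted p = 0.136) and Slc22a18 had 0.79 (adjusted p = 0.0540). Kcnq1 and Apold1 also read below 0.005 in both solvent libraries, so their fold changes are understated too. Srsf3 and Rab44 beside Cdkn1a had -0.04 and -0.26, Faf1 beside Cdkn2c -0.18, and Kri1 and Ap1m2 beside Cdkn2d -0.04 and 0.23, none called (adjusted p from 0.535 to 0.947). On the other side of Cdkn2c, 4930522H14Rik, listed at 0 in both solvent libraries, had 0.00409 and 0.00149 with MS-275 and was called higher (adjusted p = 0.0402).

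The tested genes whose pattern lay nearest each member were found by the Euclidean distance of centred log2(value + 0.005) over the 4 libraries, among genes with a mean within 2-fold. For Cdkn2b they were Sox8 (0.105) and Trim75 (0.150), and for Cdkn2a Gchfr (0.239) and Pcp4l1 (0.374). Cdkn1c lay nearest Acbd7 (0.398) and Nnat (0.511), and Cdkn1b nearest Ifitm3 (0.271) and Ptgfrn (0.308). For Cdkn1a the nearest were 2610001J05Rik (0.0611) and LOC100502628 (0.0797), for Cdkn2c 2010013B24Rik (0.141) and 9430060I03Rik (0.152), and for Cdkn2d Ccbe1 (0.0528) and Gm6578 (0.0615). With 4 libraries such likeness is easily met and describes the values alone.

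Of 13 tested genes for the kinases and cyclins that the inhibitors act on, 9 were lower in both pairs and 4 higher, where 26.5% and 50% of all genes tested were. Their median log2 fold change was -0.31, and 2 were called lower and none higher, against 6.46% and 21% of all genes. The 2 were Cdk6 (-1.83; adjusted p = 0.000437) and Ccnd1 (-1.78; adjusted p = 6.00e-05), a kinase that Ink4 proteins bind and its partner cyclin D1. Cdk6 read 0.0623 and 0.0744 with solvent and 0.020 and 0.0119 with MS-275, so its groups did not overlap. Ccna1 (0.68; adjusted p = 0.0939) and Ccne2 (0.50; adjusted p = 0.110) had the largest positive values and were not called. Of 13 pocket protein and E2F genes, which carry the CDK signal to transcription, 2 were called higher and none lower, where 21% and 6.46% of all genes were. They were Rb1 (1.02; adjusted p = 0.00434) and E2f2 (0.95; adjusted p = 0.0393). The change of E2f2 lay mostly in 1 pair, at 0.13 in pair 1 and 1.78 in pair 2. E2f6 (-0.58; adjusted p = 0.0886) and E2f3 (-0.57; adjusted p = 0.0671) had the most negative values there, and the median was -0.03.

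Of 12 genes chosen around the ubiquitin ligases that turn over Cip/Kip proteins, 11 were listed and tested, with a median of -0.03. Not all of them are ligase parts (Pcna is not), and whether each acts on Cip/Kip proteins was not tested. Cul1, the scaffold of the Skp2 ligase (-1.50; adjusted p = 0.000629), and Dtl, the substrate receptor that leads p21 to destruction (-0.89; adjusted p = 0.0166), were called lower, and none was called higher. Over all genes 6.46% were called lower and 21% higher. Skp1a (0.29; adjusted p = 0.603) and Fbxw7 (0.20; adjusted p = 0.533) were at the upper end.

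Among 18 genes for activators and repressors of Cdkn1a, 2 were called higher and 5 lower, where 21% and 6.46% of all genes were, and the median was -0.30. Egr1, an immediate early factor, rose most, with values of 0.0139 and 0.926 with solvent and 0.159 and 5.08 with MS-275 (2.78; adjusted p = 2.23e-06). Its solvent replicate 2 lay above MS-275 replicate 1, so the groups overlapped and the call rests on the pairing. Trp63 rose by 0.82 from values near 0 (adjusted p = 0.0215). Tcfap4, a repressor of Cdkn1a also called AP-4, was lower (-1.29; adjusted p = 0.00171), as were Smad3 (-1.03; adjusted p = 0.0127) and Trp53 itself (-0.93; adjusted p = 0.0206). Mdm4 and Brca1 were the other genes called lower in this list.

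Of 24 other p53 targets, 6 were called higher and 4 lower, with a median of 0.02. Ddit4 (1.63; adjusted p = 0.00139) and Pmaip1, which encodes the death factor Noxa (1.27; adjusted p = 0.00166), rose most. Eda2r (-1.35; adjusted p = 0.000585) and Zmat3 (-1.06; adjusted p = 0.00253) fell most. The list thus held calls in both directions. Its share called higher was near the background of 21%, and its share called lower was above the background of 6.46%.

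Of 20 regulators of the Ink4-Arf locus 19 were tested, with a median of 0.00. In this list 4 were called higher, a share at the background of 21%, and 5 lower, where 6.46% of all genes were. Id1, which holds Ets and E proteins off the p16Ink4a promoter, rose by 2.80 (adjusted p = 1.02e-05), and Ets1, an activator there, by 1.90 (adjusted p = 0.000266). Jdp2 (-2.12; adjusted p = 7.06e-05) and Tbx3, a repressor of p19Arf (-1.41; adjusted p = 0.00137), had the largest falls. Of the Polycomb genes in the list, Phc1 (-1.29; adjusted p = 0.00546) and Eed (-0.80; adjusted p = 0.0455) were called lower and Cbx8 (1.62; adjusted p = 0.00156) higher. Bmi1 (0.10; adjusted p = 0.827) and Ezh2 (-0.04; adjusted p = 0.929) were not called.

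Of 12 imprinted neighbours of Cdkn1c, 11 were tested and Kcnq1ot1 was listed at 0 in all libraries. Igf2 (1.77; adjusted p = 0.000511) and H19 (0.83; adjusted p = 0.0227) were called higher. Phlda2 (-1.48; adjusted p = 0.000375) and Tspan32 (-1.48; adjusted p = 0.00105) were called lower, and the median was 0.28. The shares over all genes were 21% called higher and 6.46% called lower. Phlda2, imprinted like Cdkn1c, read 0.293 and 0.297 with solvent and 0.139 and 0.0753 with MS-275, opposite in direction to Cdkn1c. On the deposited values, with the filter of 0.001 in at least 2 libraries, limma without the block called no gene of these 7 lists. With a mean value of at least 0.01 as the filter, it called 1 higher and 1 lower. By limma-voom on distinct positions without the block, 7 genes of the lists were called higher and 19 lower, counted list by list. That rule called 15.1% of all its genes higher and 5.08% lower.

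**Figure D5:**
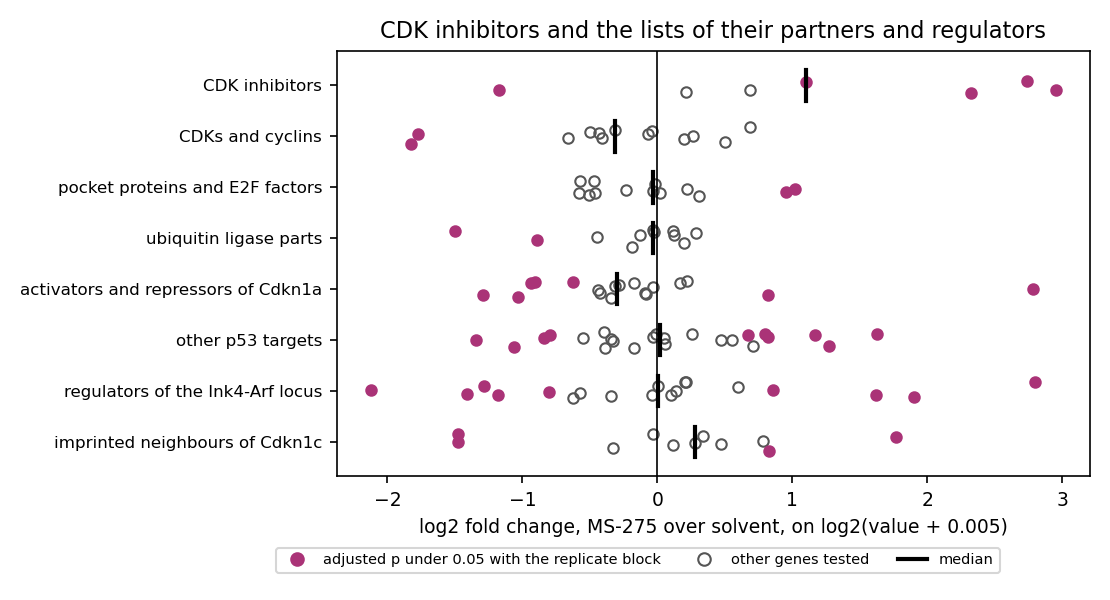
Log2 fold change of MS-275 over solvent on log2(value + 0.005) for the CDK inhibitor genes and the tested genes of 7 lists of partners and regulators; filled points passed an adjusted p of 0.05 with the replicate block, open points did not, and black lines are medians. The median is 1.10 for the CDK inhibitors and lies between -0.31 and 0.28 for the lists.

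Markers of the cell types present moved between the conditions as well. Values of the 10 ESC markers summed to 6.08 and 23.2 with solvent and 4.83 and 13.6 with MS-275, and their median log2 fold change was -0.65. Of these, 4 were called lower, where 6.46% of all genes were, led by Fgf4 (-1.56; adjusted p = 0.000337) and Utf1 (-1.45; adjusted p = 0.00402), whereas Nanog (-0.23; adjusted p = 0.679) and Dppa5a (-0.22; adjusted p = 0.662) were not. The 14 fibroblast markers summed to 0.489 and 0.595 with solvent and 0.923 and 0.999 with MS-275, with a median of 0.82. Of them 8 were called higher and none lower, where 21% and 6.46% of all genes were, led by Col1a1 (2.41; adjusted p = 5.60e-05) and Fbn1 (1.37; adjusted p = 0.00379), while Dcn (-0.72; adjusted p = 0.0728) and Col3a1 (-0.52; adjusted p = 0.206) had negative values. Fibroblasts also express several CDK inhibitor genes. The part of feeder RNA in the rises of Cdkn1c and the Ink4 genes was not tested. In bulk RNA, more or fewer cells of a type and more or less RNA per cell cannot be told apart.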

How the data were processed

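RNA-seq of TBV2 ESC was analysed in 2 solvent and 2 MS-275 libraries (5 µM, 24 h), grouped by title, with the one titled a duplicate as replicate 2. As deposited by the authors, the values are a normalized signal per gene, made with Genomatix from reads on mm9, and the aligner is not given in the sources used here. The shorter tables of each library and the tables of ratios between conditions, with missing values set to 0.001, were not used. Genes at 0.001 or more in at least 2 libraries (20336, all 7 members included) were fitted with limma 3.58.1 (R 4.3.3; lmFit, eBayes with a trend), without a block and with the replicate number as a block. Libraries were paired after the authors' headers, where replicate 1 carries the word old in either condition. Deviations from the group means correlated at 0.764 between libraries of the same number over 20336 genes. Which vehicle the controls received was not resolved.

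Distinct alignment positions (middle base in an exon of 1 GENCODE M1 gene) were counted with Python 3.11.15, numpy 2.4.6 and pandas 2.3.3, and genes with 10 or more in at least 2 libraries were tested with limma-voom. Strand was not used. Poisson and Clopper-Pearson intervals cover counting error only (scipy 1.17.1). Promoters came from RefSeq (GRCm38.p6), and each matched mm9 at 1 place. Both fits were checked on simulated data that held changed genes. These data held the replicate offsets of the real libraries and a change equal in both pairs, which is what the block assumes. The fit without the block recovered 0 of 200 changed genes with 0 false calls, and the fit with the block recovered 200 with 10 false calls. Every simulated gene had the same noise level, which real genes need not have. Because the layout matched the block, this check cannot tell which fit is right for the real libraries. The members and gene lists were chosen with earlier results of these data known. Named genes were the 7 members, the 2 largest rises and falls of each list, the 2 nearest patterns and the next tested genes; Trp53, Mdm4, Brca1, Phc1, Eed, Cbx8, Bmi1 and Ezh2 were added after their values were seen. Tfap4 is listed as Tcfap4, and Tigar matched by Entrez identifier. Cul4b and Suz12 of the lists are not analysed here.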

Additional observations from a re-analysis of the deposited data

How the results depend on the processing

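Without the block, 1 gene was called higher and 0 lower, and no member was called. A mean value of at least 0.01 called 1 gene of the partner lists higher and 1 lower without the block. With pseudocounts of 0.001 or 0.02, no filter, quantile normalization, median-ratio scaling or eBayes without a trend, 0 genes and 0 members were called in either direction. A mean value of at least 0.01 called 466 genes higher and 65 lower, with 3 members higher (and Cdkn2d left out). limma-voom on distinct positions called 2568 higher and 864 lower, with 3 members higher and 1 lower. Leaving out 1 library called 0 to 160 genes higher and 0 to 29 lower, and 0 to 1 members higher; the 1 member was Cdkn2a, without solvent replicate 1 or without solvent replicate 2. In these fits the lone library of a group is assumed to vary like the other group.

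With the replicate block, 4277 genes were called higher and 1314 lower, with 4 members higher and 1 lower. The same member counts came with the block and a pseudocount of 0.001 (4216 and 1220 genes), a pseudocount of 0.02 (3790 and 1158), a mean of at least 0.01 (2751 and 1091), quantile normalization (2936 and 2961) and median-ratio scaling (3344 and 2806). Under quantile normalization Cdkn1a took the place of Cdkn2c among the 4. With the block and no filter, 0 genes and 0 members were called. With the block, limma-voom called 5053 genes higher and 2343 lower on distinct positions and 4558 and 1772 on all alignments, each with 5 members higher and 1 lower. The causes were not tested.

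The median log2 change of all genes was 0.20, against -0.01 with median-ratio scaling and -0.03 with quantile normalization, so against it rises are smaller and falls larger; that of Cdkn1b was -1.45 with median-ratio scaling and -1.23 with quantile normalization. The direction of Cdkn1a, Cdkn1b, Cdkn1c, Cdkn2a, Cdkn2b and Cdkn2c held under all 22 settings. Cdkn2d turned to -0.27 under quantile normalization with and without the block, to -0.20 without solvent replicate 2 and to -0.24 without MS-275 replicate 1. Leaving out 1 library gave ranges of 0.13 to 1.25 for Cdkn1a, -1.69 to -0.66 for Cdkn1b, -0.24 to 0.67 for Cdkn2d, 1.51 to 3.14 for Cdkn1c, 2.36 to 3.54 for Cdkn2a, 2.68 to 2.79 for Cdkn2b and 0.64 to 1.56 for Cdkn2c. Over the 9 fits with the block, the adjusted p of Cdkn1a ran from 0.00841 to 0.498 (3 under the threshold) and that of Cdkn2c from 0.000391 to 0.352 (7 under it). Cdkn1b, Cdkn1c, Cdkn2a and Cdkn2b passed in 8 of the 9. Depth limits Cdkn2d, with 5 to 13 positions per library.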

Other observations

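Alignments within introns were counted for the members as well. Cdkn1c introns held 5 and 2 distinct positions with solvent and 35 and 13 with MS-275 (sets with repeats, then without), 8.63-fold and 5.83-fold higher per 1000000 exon positions. Cdkn2a introns held 11 and 11 with solvent and 44 and 39 with MS-275, 4.93-fold and 3.18-fold higher. In Cdkn1a the introns held 176 and 57 with solvent and 184 and 91 with MS-275, 1.29-fold and 1.43-fold higher. Those of Cdkn1b held 2 to 8 positions per library, too few to compare with the fall of its exons.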
